A study of Mus musculus with 6 samples.

Results

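Cytosolic ribosomal protein genes encode the protein parts of the small and large subunits of the ribosome that translates nuclear-encoded mRNA. They were taken as the protein-coding genes whose GENCODE mouse symbol begins with Rpl or Rps and a digit, together with Rplp0, Rplp1, Rplp2 and Rpsa. Of 102 coding symbols that matched, 10 ribosomal S6 kinase genes and 6 entries with a pseudogene symbol were left out. The remaining 86 genes were 31 of the small subunit, 43 of the large subunit, 3 of the P stalk and 9 paralogs or other genes with a matching symbol. A value under the gene's own identifier was found for 66 of the 86, against 15441 identifiers with a value in the whole series.

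The libraries came from the ipsilateral cortex of male C57/BL6J mice aged 6 to 8 weeks. Stroke was made by photothrombosis, in which injected Rose Bengal (1 mg) was activated by 15 min of light through the intact skull over the sensorimotor cortex. The control (sham) mice were operated without light and taken at day 7, and the stroke mice were taken 1, 3, 7, 14 or 28 days after illumination. Total RNA of 3 mice was pooled into 1 library per group, so no group had replicates and no test was possible. Where 5 values after stroke are given together, they stand in the order of the days, from day 1 to day 28. All differences below describe these 6 libraries, and mouse-to-mouse spread was not measured. The whole cortex was used, so a change in cell numbers and a change in RNA per cell cannot be told apart. The depth of each library is unknown, since the files give FPKM (fragment counts scaled by transcript length and library size) and not counts. Neuronal markers were abundant in every library, with a summed level of 1497 to 2002 FPKM over 8 genes.

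Ribosomal proteins are made in near equal numbers, since each ribosome holds a single copy of most of them and the P stalk holds several of its small proteins. Their mRNAs are short, abundant and known for a terminal oligopyrimidine (TOP) tract, a stretch of C and T that starts at the cap and through which the mTORC1 kinase and Larp1 control their translation. Protein synthesis in neurons is known to stop early in ischemia, while reactive glia and invading immune cells grow and divide.

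The annotated starts of the members held a stretch of C and T more often than those of all genes. The RefSeq sequences (GRCm38.p6) are shown from 10 bases before the annotated start to 20 bases from it, 5′ to 3′, with the run of C and T that spans the start in capitals. Rpl35 and Rpl15 had the longest such runs among the members with a value other than Rps14, which was not ranked. Rps6, Rplp2 and Rps24 are described below. Rpl35 lies on the minus strand at chr2:39005112-39005141, Rpl15 on the minus strand at chr14:18270967-18270996, Rplp2 on the plus strand at chr7:141447641-141447670, Rps6 on the minus strand at chr4:86857348-86857377 and Rps24 on the plus strand at chr14:24490668-24490697.
Rpl35: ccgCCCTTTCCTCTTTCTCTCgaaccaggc
Rpl15: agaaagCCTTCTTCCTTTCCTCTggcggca
Rplp2: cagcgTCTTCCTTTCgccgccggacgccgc
Rps6: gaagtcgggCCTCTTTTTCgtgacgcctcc
Rps24: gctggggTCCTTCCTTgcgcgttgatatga

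The run was 18 bases long in Rpl35, 17 in Rpl15, 10 in Rplp2 and Rps6 and 9 in Rps24. Of 78 RefSeq starts of 66 members, 26.9% had a run of 8 or more C or T within 10 bases of the start on the gene's strand, against 7.43% of all 32851 promoters. The letters CTTT, which can lie inside such a run, were within 10 bases of 21.8% of the members' starts and of 7.83% of all. Within 50 bases the shares were 75.6% against 35.7% for the run and 62.8% against 34.8% for CTTT. The strongest assembled start in the control library lay within 10 bases of a RefSeq start for 19 of 51 members and within 50 bases for 35. The assembled starts therefore did not mark the annotated start base in most members.

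The members were among the most abundant mRNAs of the cortex. In the control library 56 members were at 50 FPKM or more and 8 were among the 100 highest genes. On this per-length scale the highest was Rplp1, a P stalk protein that helps to recruit elongation factors, at 714 FPKM. It was followed by Rps15 at 438, Rpl26 at 316, Rpl3 at 300 and Rpl8 at 272. Rpl3 and Rpl8 lie near the peptidyl transferase centre, and Rpl26 lies by the exit tunnel. Among the members in all 6 libraries the lowest in control were Rpl7l1 at 12.1, Rps19bp1 at 12.7, Rps15a at 13.0, Rps27l at 19.5 and Rplp2 at 33.8 FPKM. Rpl7l1, Rps19bp1 and Rps27l are not main ribosome parts but a nucleolar relative of Rpl7, a protein that binds Rps19, and a paralog of Rps27. Lower still were 3 members that were listed in some libraries only, Rpl39l at 0.0557 FPKM, Rpl3l at 0.499 and Rpl29 at 1.48.

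Most members followed a common course across the libraries. The median of the 61 members listed in all 6 was 126 FPKM in control and 157, 152, 145, 183 and 117 after stroke. The members held 3.67% of the summed FPKM of all genes in control and 4.20%, 4.03%, 4.06%, 4.71% and 3.56% after stroke. Day 14 was thus the highest library and day 28 and control the lowest. Rplp1 followed this order closely, with 714 FPKM in control and 894, 780, 805, 955 and 762 after stroke. Rps15, which is needed for export of the small subunit from the nucleus, went from 438 in control to 557, 448, 477, 724 and 478 FPKM after stroke.

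**Figure D1:**
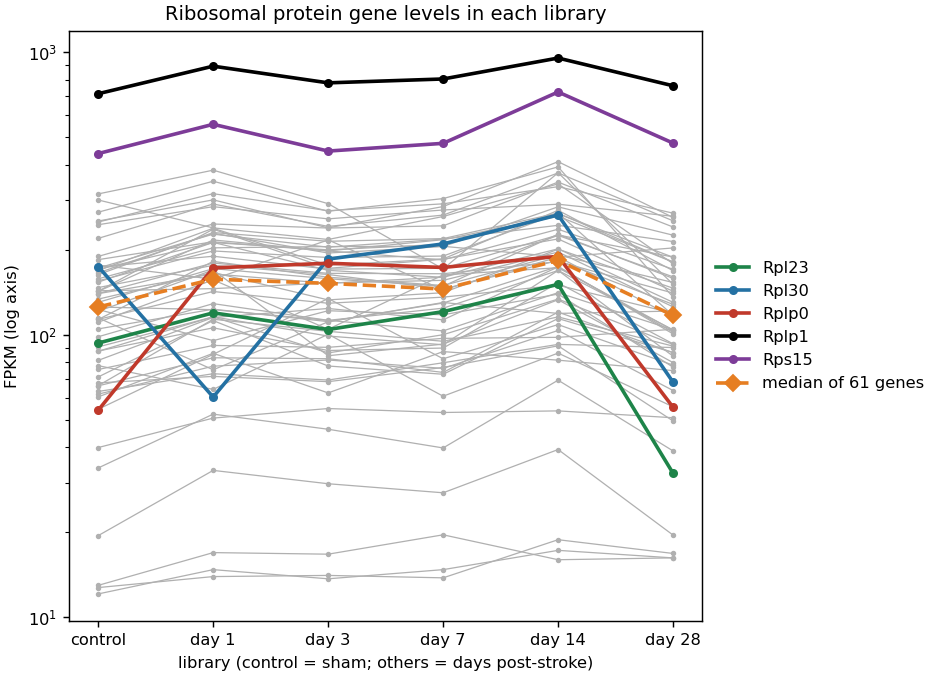
FPKM on a log axis in the 6 libraries for the 61 members listed in all of them, 1 line per gene, with the median as orange diamonds. Most lines peak at day 14, where the median is 183 against 126 FPKM in control, while Rplp0, Rpl30 and Rpl23 leave the common course.

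The highest of the 6 libraries was day 14 for 49 of the 61 members. Over all genes listed in every library it was day 14 for 27.8%. Control was the highest library for 0 of the 61 members, against 13% of all genes, and the lowest for 35 of them, against 18.5% of all genes. These 35 members were above control in all 5 post-stroke libraries. Day 28 was the lowest library for 18 members, and the share of all genes lowest at day 28 was not counted.

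Each post-stroke library was then compared with control as log2((FPKM + 0.1)/(control FPKM + 0.1)), which understates the change of low genes, over genes at 1 FPKM or more in either library. For the 64 members compared, the median log2 ratio ran 0.35, 0.15, 0.22, 0.57 and 0.08 from day 1 to day 28. Over all genes it was 0.01, 0.03, 0.03, 0.10 and 0.03. The ratio was above 0 for 56, 51, 52, 63 and 43 of the 64 members, and for 51.4%, 53.4%, 53.8%, 57.4% and 53.8% of all genes. The members thus stood above the middle of all genes by more at day 14 and day 1 than at day 28.

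The shifts were small for single genes. At a log2 ratio of 1 or more, 1 member was higher and 2 were lower at day 1, against 5.08% and 4.48% of all genes. At day 3 the counts were 3 higher and 1 lower (8.53% and 2.52% of all genes), and at day 7 they were 1 higher and 2 lower (8.54% and 2.1%). The lower gene at day 3 and both lower genes at day 7 were not listed on that day and were counted as 0, and over genes listed in both libraries 0 were lower on either day. At day 14, 6 were higher and 1 lower (8.95% and 6.9%), and at day 28, 1 was higher and 4 lower (3.67% and 2.77%). At a log2 ratio of 0.5 or more, day 14 stood apart, with 41 of 64 members higher and 1 lower, against 22.3% and 15.9% of all genes. On day 1, 12 were higher and 3 lower (13.9% and 13.7% of all genes). Day 3 had 6 higher and 3 lower (18.5% and 8.8%), day 7 had 7 and 3 (17.8% and 7.81%) and day 28 had 3 and 8 (11% and 8.51%). At the smaller threshold 64.1% of the members were higher at day 14, against 22.3% of all genes, and 18.8% at day 1. At days 3, 7 and 28 the members' share of 9.38%, 10.9% and 4.69% was under that of all genes. Over 110 other coding genes under 1000 nt and at 50 FPKM or more in control, the share higher was 10%, 10.9%, 6.36%, 45.5% and 3.64% after stroke.

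**Figure D2:**
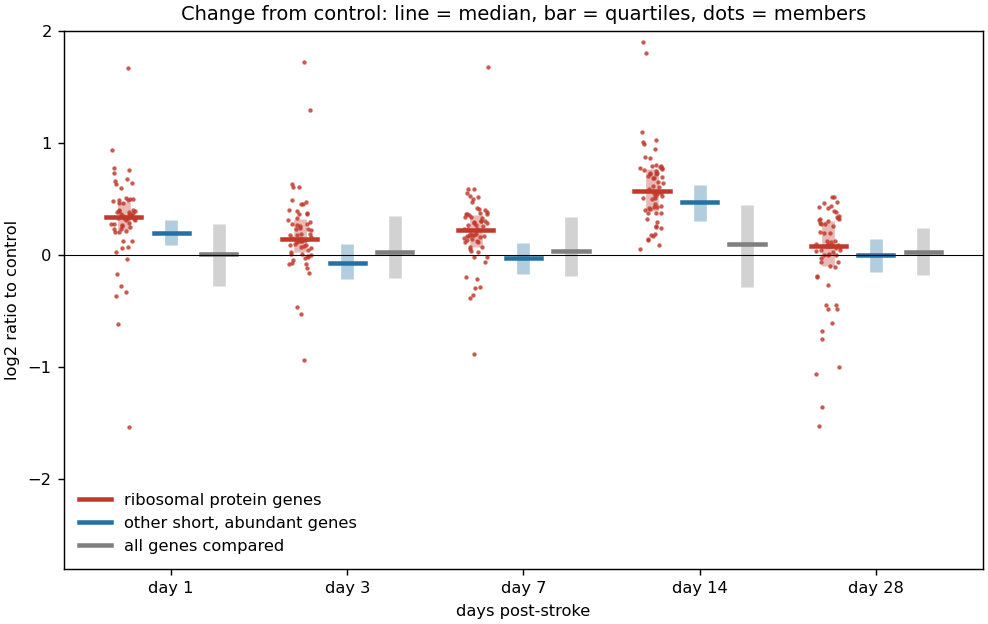
Log2 ratio to control at each day for the members (red), for 110 other short coding genes at 50 FPKM or more (blue) and for all genes compared (grey), with lines for medians, bars for quartiles and dots for single members. The red median lies above the grey one at every day, most at day 14 (0.57 against 0.10), where the blue median is 0.48, and members with a ratio beyond 2 in size are not drawn.

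The spread among the members was compared with that of other genes. The distance between the quartiles of their log2 ratios was 0.24, 0.30, 0.28, 0.37 and 0.40 after stroke. Over the 923 other genes at 50 FPKM or more in control it was 0.35, 0.34, 0.32, 0.57 and 0.25. Over the 110 other short, abundant coding genes it was 0.22, 0.32, 0.28, 0.32 and 0.30. The middle members thus spread about as widely as genes of their kind, and more widely at day 28. The SD of the members' ratios, which takes in the extreme genes, was 0.88 to 1.55, against 0.26 to 0.37 over the 110 genes. Unlike those, the members were not limited by level. Over all genes, filtered as the members were, the SD was 0.72 to 1.22. Over the members under 1000 nt at 50 FPKM or more in control it was 0.28 at day 7 and 1.81 at day 3, its extremes.

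Transcript length moved with the ratios, and the members are short. Their principal transcripts in GENCODE had a median of 882 nt, against 2818 nt over all genes with a value, and 54 of the 86 were under 1000 nt. FPKM of transcripts that are not much longer than the sequenced fragments are poorly measured. Among the 11961 other genes, the log2 ratio at day 14 was lower in longer genes (Spearman rho of −0.41 across genes, which share their libraries), and at day 1 rho was −0.25. Among the 64 members rho was −0.09 at day 14 and 0.11 at day 1. Other genes under 500 nt had a median log2 ratio of 0.24 at day 14, and those of 500 to 700 nt 0.48. Those of 700 to 1000 nt had 0.46, those of 1000 to 2000 nt 0.33 and those of 4000 nt or more −0.22. The members stood at 0.73, 0.61, 0.57 and 0.59 in the classes under 2000 nt, with 22 of them at 700 to 1000 nt. In these classes the other genes had median control levels of 6.48 to 11.0 FPKM, against 112 to 161 for the members.

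**Figure D3:**
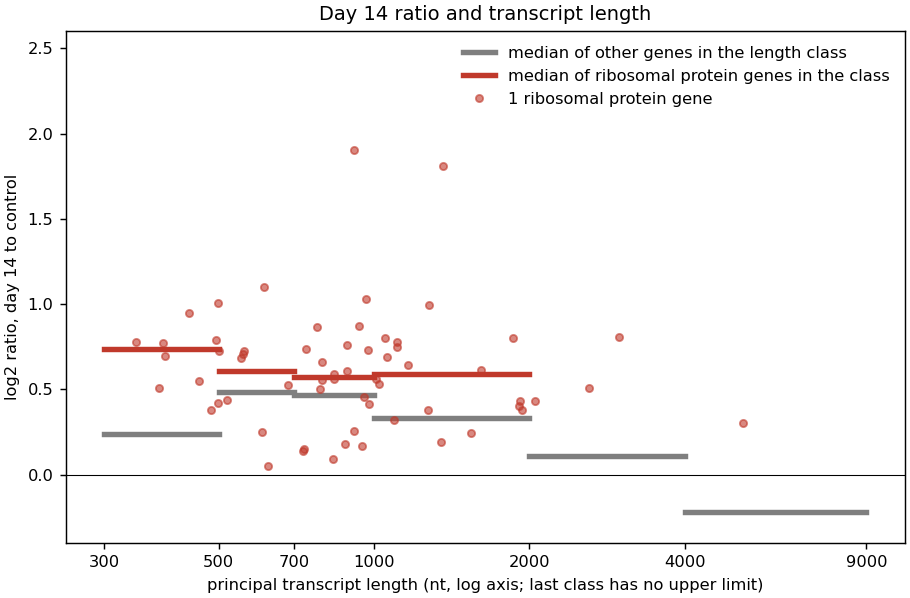
Log2 ratio of day 14 to control against principal transcript length on a log axis, with a dot per member and lines for the median of each length class with 10 members or more (red) and of the other genes (grey). The grey lines fall from 0.48 at 500 to 700 nt to −0.22 at 4000 nt or more, the red lines lie between 0.57 and 0.73, and 2 members with a ratio beyond 2 in size are not drawn.

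The members that are short and abundant were set beside other genes of that kind, a choice of members made after seeing the data. The 37 members under 1000 nt at 50 FPKM or more in control had median log2 ratios of 0.32, 0.13, 0.18, 0.55 and 0.08. The 110 other coding genes past the same limits had 0.20, −0.07, −0.02, 0.48 and 0.00. The members' medians were above these by 0.13, 0.20, 0.21, 0.07 and 0.08. Both sets were thus highest at day 14, and the distance between them was larger at days 3 and 7. When each gene's ratio was set against the other genes in its length bin, the members' median was 0.19, 0.13, 0.14, 0.26 and 0.05. After that correction 48 of 64 members were above 0 at day 14. The part of length in the ratios was not tested beyond this.

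Among the members with a value of their own, those of the small subunit had the higher medians. The members read by position, described below, were not in these medians. Among those the large subunit genes had the higher median on each day. The 26 compared stood at 0.36, 0.23, 0.29, 0.68 and 0.10 after stroke, and the 31 large subunit members at 0.28, 0.06, 0.16, 0.53 and 0.04. All 26 small subunit members were above 0 at day 14. Rps28 was at 87.5 FPKM in control and 116, 99.0, 92.3, 169 and 84.1 after stroke. Rps23, in the decoding centre, was at 190 FPKM in control and at 247, 239, 243, 347 and 241 after stroke. Rps25, a protein known from translation at internal ribosome entry sites, was at 54.5 in control and 85.3, 135, 82.3, 109 and 78.1 after stroke. Its log2 ratio of 1.30 at day 3 was the one value past 1 among the small subunit members, and summed transcript ends gave no ratio for it. Rps6, the substrate of the S6 kinases, was above control at day 14 alone, with 123 FPKM in control and 95.4, 122, 118, 139 and 76.9 after stroke. Its log2 ratio was −0.37 at day 1 and −0.68 at day 28.

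**Figure D4:**
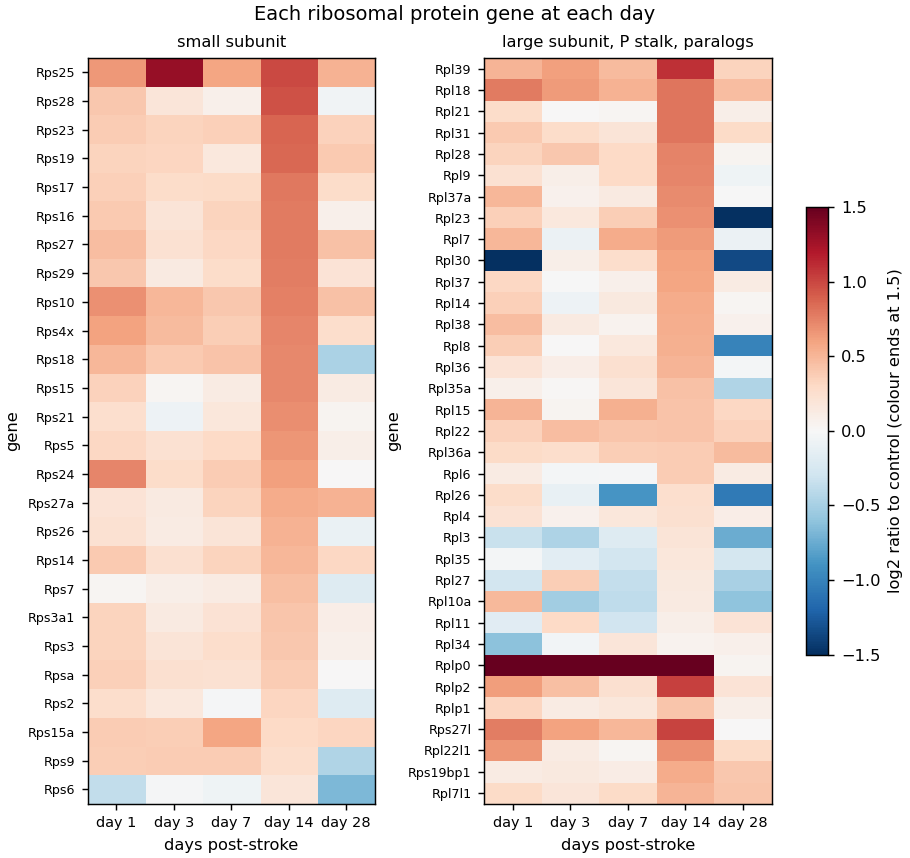
Log2 ratio to control at each day for the 61 members listed in all 6 libraries, with small subunit genes on the left and the others on the right, ordered by the day 14 value within each class. The day 14 values are above 0 throughout, while the day 28 column holds blue cells such as Rpl23 (−1.53), Rpl30 (−1.36), Rpl26 (−1.06) and Rps6 (−0.68).

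Some members have known roles outside the ribosome. Rps3, which also takes part in DNA repair, was at 113 FPKM in control and 142, 129, 136, 150 and 119 after stroke. Rpsa, the laminin receptor, was at 140, 180, 165, 165, 182 and 141 FPKM from control to day 28. Rpl11, which binds Mdm2 together with Rpl5, was at 177 in control and 157, 217, 144, 188 and 203 after stroke. Rps27a, made as a fusion with ubiquitin, was lowest in control at 63.1 FPKM and was 72.9, 69.2, 79.7, 92.5 and 90.2 after stroke. Together with Rps25 and Rpl29 it made up the 3 members with a log2 ratio of 0.5 or more at day 28.

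The 3 P stalk genes did not move alike. Rplp0, the anchor of the stalk, was at 54.1 FPKM in control and 173, 179, 173, 190 and 55.4 after stroke. Control and day 28 were thus low and the other 4 libraries were more than 3-fold higher, with log2 ratios of 1.67, 1.73, 1.68 and 1.81. Rplp2 was at 33.8 in control and 52.4, 46.3, 39.8, 69.1 and 38.8 after stroke, a log2 ratio of 1.03 at day 14. For Rplp1 the log2 ratio at day 14 was 0.42. The 3 proteins act in one complex, and the Rplp0 values have no counterpart in its partners.

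Rpl30 was low at day 1 and day 28, and Rpl23 at day 28. Rpl30 was at 175 FPKM in control and 60.2, 186, 210, 266 and 68.0 after stroke. Rpl23 was at 93.6 in control, 120, 104, 121 and 151 at day 1 to 14 and 32.3 at day 28. Rpl26 was at 316 in control and 383, 291, 171, 375 and 151 after stroke, but from summed transcript ends alone its day 28 log2 ratio was 10.004 and not −1.06. Over the 61 members listed throughout, the highest level was a median of 1.68 times the lowest, and over 3 times for Rpl23, Rpl30 and Rplp0 alone.

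A further group was listed in some libraries only, and a gene that is not listed in a library is counted as 0 there. Its events may instead be filed under another identifier. The reading by position described below covered only members with no value in any library. Rpl41, the smallest ribosomal protein, was at 179 FPKM in control and, in order, 0.491, not listed, 154, 11.1 and 12.1 after stroke. Rpl29 was at 1.48 in control and 1.55, 52.7, not listed, 66.5 and 42.0 after stroke. Rpl7a was at 24.4 in control and 47.1, 12.7, not listed, 91.6 and 30.6 after stroke. These 3 genes supplied all the members past a log2 ratio of 2 in size, and their courses were unlike each other. Rpl39l, the paralog known from testis, was listed at control and day 1, at 0.0557 and 0.180 FPKM. Rpl3l, the paralog known from muscle, was listed at control and day 28, at 0.499 and 0.601 FPKM. GENCODE holds 290 named pseudogenes of the family and 3 had a value, the highest being Rpl13-ps6 at 8.74 FPKM in control and not listed elsewhere. Reads shared between a gene and a near-identical copy could be placed on either, so the values of such genes are uncertain.

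The paralogs with a value in all libraries were highest at day 14, as were their parents other than Rpl22. Rpl22l1 was at 71.0 FPKM in control and 112, 77.6, 72.5, 114 and 86.6 after stroke, and its parent Rpl22 at 39.9, 50.7, 54.9, 53.1, 53.8 and 50.9. Rps27l was at 19.5 in control and 33.1, 29.7, 27.6, 39.3 and 19.6 after stroke, while Rps27 was at 166, 229, 195, 205, 284 and 225. Rpl39 was at 81.2 in control and 115, 124, 113, 174 and 102 after stroke. Of these 5 genes only Rpl22 was highest elsewhere, at day 3. Rpl7l1 stayed between 12.1 and 17.3 FPKM, against 105 to 173 for Rpl7. Rps19bp1 stayed between 12.7 and 18.8, against 66.0 to 120 for Rps19. Rpl3 was at 300 in control and lowest at day 28, at 179 FPKM, and Rps4x, an X-linked gene, was at 143 in control and 237 at day 14. Rpl36a was at 75.4 in control and 105 at day 28, its highest library.

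The 20 members without a value of their own were mostly present under other names. At the position of 15 of them the files held events that were filed under another gene identifier. These were snoRNA entries for 12 genes, a miRNA entry for Rpl19, and the neighbouring coding genes Flt3l for Rpl13a and Zbtb11 for Rpl24. Many snoRNAs are encoded in introns of ribosomal protein genes, as Snora70 is in Rpl10 and Snora3 in Rpl27a. Values read by position, an analysis chosen after seeing the data, gave Rpl32 at 208 FPKM in control and 285, 266, 276, 385 and 252 after stroke. Rpl13a, which in the GAIT complex also silences inflammatory mRNAs, was at 128 in control and 200, 149, 166, 167 and 138 after stroke. Rpl5, the partner of Rpl11, was at 96.5, 113, 98.5, 122, 129 and 109 from control to day 28. Rpl10 was at 47.5 in control and 63.9, 64.2, 99.8, 83.7 and 55.3 after stroke.

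The recovered genes, too, had their highest median at day 14. Their median log2 ratio was 0.35, 0.22, 0.34, 0.59 and 0.13, and 14, 13, 14, 15 and 14 of the 15 were above 0. Day 14 was the highest library for 12 of the 15. With them the family held 4.39% of the summed FPKM in control and 5.04%, 4.83%, 4.92%, 5.71% and 4.37% after stroke. No events were found at the positions of Rpl13, Rpl17, Rpl10l, Rpl36al and Rps27rt.

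Rps24, a small subunit protein needed to process the precursor of 18S rRNA, changed in the form of its transcript. Its last coding part can be joined in 3 ways, since small exons of 18 nt (chr14:24494052-24494069, plus strand, mm10) and 20 nt (chr14:24495430-24495449) can be used or skipped. The junction sequences of 3 annotated transcripts are shown from GENCODE M21, with the small exon in capitals in the first and second line and the last exon in capitals in the third. They carry the finding, since the reading frame ends in a different place in each.
both small exons: aaaaagAAATGAAATACCTAGCAGtgagtg
second small exon only: aaaagTGAGTGGAGATTGGATACAGccaaa
neither small exon: ggtgctggcaaaaagCCAAAGGAGTAGATC

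In the first form the annotated stop lies in the 18 nt exon, after 1 codon, at chr14:24494055-24494057. In the second it is formed by the first bases of the 20 nt exon, with 0 codons between, at chr14:24495430-24495432. In the form with neither exon it lies in the last exon after 3 codons, at chr14:24495784-24495786. The forms thus differ by at most 3 residues at the end of the protein.

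The form with neither small exon was at 25.5 FPKM in control and 57.8, 101, 105, 127 and 35.6 after stroke. The form with both was at 74.8, 107, 41.8, 48.1, 54.8 and 67.0 FPKM. The form with the second exon alone was at 41.6, 71.3, 27, 31.5, 36.5 and 39.4 FPKM. The share of the neither form was thus 18.0% in control and 24.5%, 59.5%, 57.0%, 58.1% and 25.1% after stroke. Days 3, 7 and 14 stood together and apart from the other 3 libraries. The gene's total was 143 FPKM in control and 237, 172, 185, 219 and 143 after stroke, so at days 3, 7 and 14 the total lay within its range in the other libraries.

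**Figure D5:**
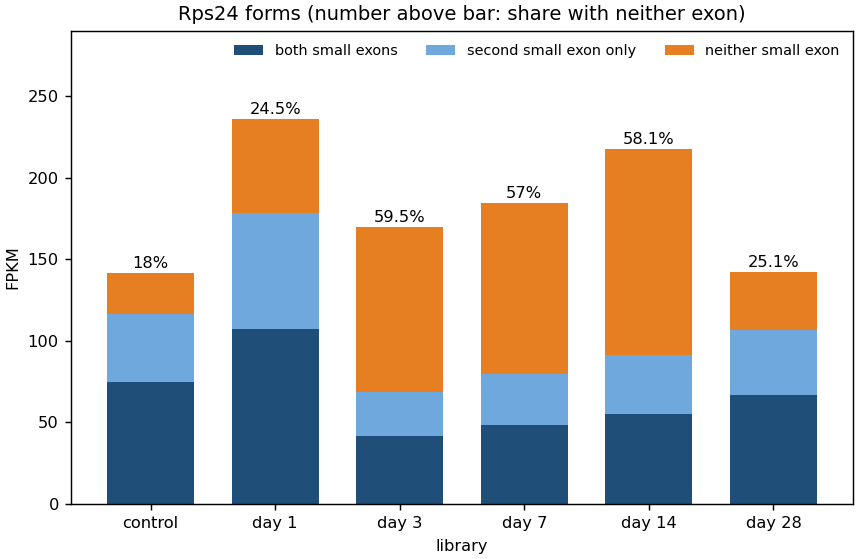
FPKM of the 3 Rps24 forms stacked in each library, with the share of the form that has neither small exon printed above each bar. The orange part makes up 59.5%, 57.0% and 58.1% at day 3, 7 and 14, against 18.0% in control.

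The 20 nt exon was thus present in 82.0% of the 3 forms together in control and in 75.5%, 40.5%, 43.0%, 41.9% and 74.9% after stroke, and the 18 nt exon, which only the form with both holds, in 52.7% in control and 45.3%, 24.6%, 26.0%, 25.1% and 47.2%. The files also pair each exon with a skipping event, and for the 20 nt exon this pair leaves out the form with both exons. In that pair inclusion was 62.0% in control and 55.2%, 21.1%, 23.0%, 22.4% and 52.5% after stroke. Over 127 exons with such a pair at 50 FPKM or more in all libraries, inclusion changed by 20 points or more from control in 10.2%, 15%, 7.87%, 15.7% and 10.2% after stroke. Over 1359 exons at 5 FPKM or more the shares were 17.2%, 17.1%, 15.2%, 20.7% and 14.9%. The pair of the 18 nt exon leaves out the form with neither exon, and among the forms that hold the 20 nt exon the 18 nt exon was present in 63.8% in control and in 58.9% to 62.6% after stroke. The other 2 such exons among the members, in Rps9 and Rps19, were included at under 1% in every library.

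Summed markers of several cell types moved with the Rps24 form. For microglia and macrophages the summed level over 10 of 11 genes was 122 FPKM in control and 145, 474, 873, 601 and 158 after stroke, and Itgam had no value. Markers of astrocytes summed to 540 in control and 707, 1260, 916, 736 and 564 after stroke, over 6 genes. Those of fibroblasts summed to 24.9 in control and 28.3, 84.9, 105, 93.1 and 25.3, over 5 genes, and those of neurons to 2002 in control and 1948, 1538, 1731, 1497 and 1907, over 8 genes. Markers of dividing cells summed to 1.44 in control and 2.54, 21.5, 8.03, 2.23 and 1.8 after stroke. By these sums days 3, 7 and 14 were the high libraries for microglia and macrophages, astrocytes and fibroblasts and the low ones for neurons. Gfap made up much of the astrocyte sum, at 85.8 FPKM in control and 330, 698, 422, 380 and 150 after stroke. Without Gfap the astrocyte sum was above control at days 3 and 7 and below it at days 1, 14 and 28. P2ry12, of microglia, was at 18.0 in control and 21.7, 17.7 and 13.3 at days 3, 7 and 14. Aif1, Cd68, Lyz2, Tyrobp and C1qa were above control on these days. Of neurons, Rbfox3 was at 89.9 in control and 91.5 at day 14, and Snap25 at 706 and 486. The part of these cells in the Rps24 form and in the members' levels was not tested.

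The related genes were set beside the members. Fau and Rack1 are ribosomal proteins outside the naming rule, and both were highest at day 14. Fau was at 228 FPKM in control and 289, 254, 283, 428 and 271 after stroke, and Rack1, a scaffold on the small subunit, was at 92.5 in control and 130, 125, 125, 139 and 97.6. Of 19 other mRNAs known to carry a TOP tract, 17 had a value, and their median log2 ratio was 0.32, 0.22, 0.26, 0.36 and 0.16. All 17 were above 0 at day 3 and day 7, against 53.4% and 53.8% of all genes. Of the 110 other short, abundant coding genes 35.5% and 41.8% were above 0, with medians of −0.07 and −0.02. The TOP list, unlike these, was not limited by length or level. The largest at day 14 was Nap1l1, a histone chaperone, at 18.3 FPKM in control and 39.9, and the smallest was Eif4b at 45.5 and 38.2. Npm1, a nucleolar protein, was the largest at day 7, at 42.0 in control and 62.7 FPKM, and Eef2 the smallest, at 244 and 251.

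Other parts of the translation machinery had smaller medians than the members at days 1, 3, 7 and 14, and the ribosome assembly genes a larger one at day 28. The 41 initiation factor genes compared had medians of 0.17, −0.06, 0.02, 0.10 and 0.05 after stroke, with 0 higher and 3 lower past a log2 ratio of 1 at day 14. Eif4g1, the scaffold of the cap-binding complex, was lowest, at 53.8 FPKM in control and 24.9 at day 14, and Eif3g highest, at 33.1 and 60.5. The 7 elongation factors with a value stood at 0.18, 0.12, 0.06, 0.30 and 0.01, and Eef1a2, the form of neurons and muscle, was at 411 FPKM in control and 389 at day 1 but 70.2 at day 28. The 28 ribosome assembly genes stood at 0.19, −0.02, −0.03, 0.18 and 0.11, with Heatr1 highest at day 14, at 2.49 FPKM in control and 8.93. The 11 genes of mTORC1 and of the control of TOP mRNAs stood at −0.06, −0.01, −0.05, −0.01 and 0.06. Eif4ebp1, a repressor of cap-dependent initiation, was the 1 gene of this list past a log2 ratio of 1, at day 14, with 1.41 FPKM in control and 2.82, 2.43, 2.53, 3.52 and 1.57 after stroke.

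Genes for the mitochondrial ribosome, a separate set of proteins, gave a contrast at days 3 and 7. The 72 of 78 that were compared had medians of 0.12, −0.04, −0.07, 0.31 and −0.01. The 72 of 81 nuclear genes of the respiratory chain had 0.18, −0.11, −0.07, 0.38 and 0.00. Both lists were thus above control at day 1 and day 14, as the cytosolic members were, and slightly below it at day 3 and day 7, where the cytosolic members were at 0.15 and 0.22. At day 14 the mitochondrial ribosome list held Mrps18b at 8.45 FPKM in control and 18.7, and Mrps18c at 20.2 and 7.16.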

How the data were processed

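The authors sequenced poly(A)-selected, strand-specific libraries as paired 150 base reads. The submitters' processing notes list mm10, Trimmomatic 0.30, HISAT2 2.0.1 and HTSeq 0.6.1 without their roles, and the program that called the events is not given in the sources used here. The deposited values are FPKM per event (transcript start, transcript end, skipped exon and others), and exact copies (10557 of the records) were removed. Events at 0 are not listed, and a gene that is not listed was counted as 0, though its events may be filed under another identifier. A gene's FPKM was the largest of its summed starts, its summed ends and any single event. Log2 ratios used a pseudocount of 0.1 FPKM over genes at 1 FPKM or more in 1 of the 2 libraries. A gene past a log2 ratio of 1 was counted as higher or lower. Length was corrected over 20 bins of longest or principal transcript length (GENCODE M21). The scripts were tested on simulated data. With 1 library per group there were no tests and no p-values. The members and lists were chosen with earlier results of these data known. Genes were named by a rule on level, ratio, absence and role, and Rps23, Rps28 and the genes read by position were chosen after their values were seen. Python 3.11.15 with pandas 2.3.3 was used.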

Additional observations from a re-analysis of the deposited data

How the results depend on the processing

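No paired analysis was possible because each group holds 1 library. The median log2 ratio of the members stayed above 0 at every day under all 18 alternatives, between 0.19 and 0.35 at day 1, 0.12 and 0.18 at day 3, 0.13 and 0.26 at day 7, 0.19 and 0.60 at day 14 and 0.04 and 0.09 at day 28. It moved by 0.1 or more with the length correction alone, to 0.19 at day 1 and 0.26 at day 14 over longest transcripts and to 0.19 and 0.19 over principal transcripts, and 3 members were then higher at day 14 under either. The distance between quartiles moved at day 28 alone, to 0.28 over the 40 members whose summed starts and ends differed by at most 10% in every library and to 0.54 over the 37 members under 1000 nt at 50 FPKM or more.

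Counts past a log2 ratio of 1 are small and moved readily. With a threshold of 0.5 they were 12 higher at day 1, 6 higher and 3 lower at day 3, 7 higher at day 7, 41 higher at day 14, and 3 higher and 8 lower at day 28. With 0.25 they were 45 higher and 6 lower at day 1, 22 and 4 at day 3, 29 and 7 at day 7, 54 higher at day 14, and 21 and 13 at day 28. The share of all genes past 0.25 was not counted. The upper quartile of the log2 ratios of all genes was 0.28, 0.35, 0.34, 0.45 and 0.24. Their lower quartile was −0.28, −0.20, −0.18, −0.28 and −0.17. Summed starts gave 2 higher at day 1, 5 higher at day 3 and 2 lower at day 14. Summed ends gave 3 higher at day 1, 1 higher and 2 lower at day 3 and 2 higher at day 7. Events inside the annotated span gave 2 lower at day 3 and 1 lower at day 7. No filter gave 2 lower at day 3 and at day 14, and a filter of 5 FPKM 1 lower at day 7. Genes listed in both libraries gave 0 lower at day 3 and at day 7. The 40 members gave 1 lower at day 1, 1 higher and 0 lower at day 3, 0 lower at day 7, 3 higher and 0 lower at day 14, and 0 higher and 2 lower at day 28. The 37 members gave 0 higher at day 1, day 3 and day 28, 0 higher and 0 lower at day 7 and 1 higher at day 14. The members recovered by position brought the higher count at day 7 to 2. Summed ends gave no ratio past the filter for Rps25 at day 3, Rplp2 at day 14 or Rpl29 at days 3, 7, 14 and 28. For single genes, Rpl26 at day 28 turned from −1.06 to 10.004 with summed ends, and Rplp2, Rps27l and Rpl39 at day 14 fell under 1 after the length correction. Rplp2 and Rps27l also fell under 1 with the median of all genes set to 0 (0.93 and 0.91) and with upper quartile scaling (0.98 and 0.96), and Rps27l with a pseudocount of 1 (0.98).

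The share of summed FPKM in control and after stroke was 4.37%, 4.91%, 4.76%, 4.91%, 5.39% and 4.37% with summed ends, 3.84%, 4.40%, 4.22%, 4.25%, 4.96% and 3.73% with events inside the span, 3.81%, 4.36%, 4.19%, 4.22%, 4.93% and 3.71% over coding genes, and 4.39%, 5.04%, 4.83%, 4.92%, 5.71% and 4.37% with the recovered members. With summed starts it moved to 3.79% in control, to 4.34% and 4.15% on days 1 and 3, and to 4.97% on day 14. Day 14 was highest in each. The settings of the 40 members, the 37 members, the recovered members, the principal length and the summed starts as the denominator of the Rps24 shares were chosen after seeing the data, and the Rps24 shares moved by under 1 point. Depth per library is unknown, so counting error cannot be given.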

Other observations

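The Rplp0 course, low in control and at day 28 and high in between, was searched for in all genes after its values were seen. Among 7397 genes at 5 FPKM or more in control, 4 were more than 2.5 times higher in each of the first 4 post-stroke libraries than in both control and day 28. Besides Rplp0 these were Atp5e, Serpina3n and Vim. Atp5e, a small subunit of the mitochondrial ATP synthase, was at 14.8 FPKM in control and 122, 115, 125, 180 and 14.3 after stroke. Vim and Serpina3n are known markers of reactive astrocytes. Vim was at 15.5 in control, 64.2, 167, 81.5 and 67.6 at day 1 to 14 and 21 at day 28. Serpina3n was at 5.30 in control and 37.5, 68.0, 38.8, 62.0 and 11.8 after stroke.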
